A study of Homo sapiens with 4 samples.

Results

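The genes described here are 37 interferon-stimulated and RNA sensing genes: receptors that detect foreign RNA in the cytoplasm, their adaptor, the transcription factors they activate, and antiviral genes that interferon switches on. The rule that sets them is a list of gene names, and all 37 were found among the 32973 genes in the deposited RNA sequencing table. The libraries came from T24T and UMUC3, established human bladder cancer cell lines. Each line had been stably transfected with a BCUC-1 overexpression plasmid or with the vector, which gave the groups T24T BCUC-1, T24T vector, UMUC3 BCUC-1 and UMUC3 vector with 1 library each. BCUC-1 is the circular RNA hsa_circ_0001361, made from exons of FNDC3B. All 4 groups thus carried a stably introduced plasmid, and no untransfected or interferon-treated library was analysed here. Whether a transfected line was 1 clone or a pool of cells is not given in the sources used here.

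RIG-I (DDX58) and MDA5 (IFIH1) bind double-stranded or otherwise foreign RNA and signal through MAVS on mitochondria to IRF3 and IRF7, which switch on type I and type III interferons. Secreted interferon then acts on its receptors, and a complex that contains STAT2 and IRF9 binds the interferon-stimulated response element, a DNA motif in the promoters of the induced genes. Many of the sensors are induced in this way themselves, so that a responding cell carries more of them. Transfected or unmodified circular RNA has been discussed as a possible ligand for RIG-I and as a regulator of the kinase PKR (EIF2AK2), which is why these genes are read here.

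The libraries held 23588847 assigned reads in T24T BCUC-1, 23679229 in T24T vector, 22730112 in UMUC3 BCUC-1 and 26497894 in UMUC3 vector. Levels are given in RPKM, which relate the reads of a gene to its length in kilobases and to the total of reads assigned in the library, or as reads where these were few. FNDC3B, the host gene, had BCUC-1 to vector ratios of 0.949 in T24T and 0.987 in UMUC3, but a gene-level value does not measure the circle, so the level of BCUC-1 itself is not known from this table. The lines differed in some epithelial markers: KRT8, a keratin of simple epithelia, stood at 146 and 133 RPKM in T24T BCUC-1 and T24T vector, and at 13.2 and 13.0 RPKM in UMUC3 BCUC-1 and UMUC3 vector. Other markers did not separate the lines. UPK2 stood at 0.345 and 0.955 RPKM in T24T BCUC-1 and T24T vector, and at 0.477 and 0.580 RPKM in UMUC3 BCUC-1 and UMUC3 vector. PPARG differed by a log2 of -0.026 (limma adjusted p = 0.82) in the fit between the lines described further on. UPK1B, KRT5, KRT20 and CDH1, which mark urothelial differentiation or cell adhesion, had 0 reads in both UMUC3 libraries, and KRT5, KRT20 and CDH1 had at most 3 in either T24T library. Summed over 14 such markers the level was 263 and 246 RPKM in T24T BCUC-1 and T24T vector, against 60.7 and 58.4 RPKM in UMUC3 BCUC-1 and UMUC3 vector. KRT8 alone gave 146 of the 263 RPKM in T24T BCUC-1 and 13.2 of the 60.7 RPKM in UMUC3 BCUC-1.

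Promoters of many of these genes share a sequence feature, the core of the interferon-stimulated response element. The genes were chosen by name as interferon-stimulated and RNA sensing genes, so a high share with this feature is no finding independent of that choice. RefSeq promoters on GRCh38.p14, from 250 bases before to 50 bases after the start site, were matched for 29 of the 37 genes. They were searched on both strands for GAAANNGAAA, the repeated half-site at the core of the interferon-stimulated response element, where N is any base. It was present in 17 of the 29 promoters (58.6%), against 3.57% of all 35116 promoters of the same length. The longer form GAAANNGAAACT, which always contains the shorter one, was present in 12 of the 29 (41.4%), against 0.273% of all promoters. IFIT2, MX2, OAS2, OASL, DHX58, IRF3, IRF7 and USP18 had no matched promoter.

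The following 6 promoters all hold a match, and no promoter without a match is shown. Their genes span a wide range of levels in these cells, from the most abundant of the 37 to genes with 0 reads in some libraries. Capitals mark each match to GAAANNGAAA or to its reverse complement, written 5′ to 3′ on the strand of the gene. EIF2AK2, the most abundant of the 37 in both T24T libraries, and SAMD9 have 1 match each, and IFI6 has 3. IFI44 and IFI44L are neighbours on chromosome 1 and have 1 and 2 matches. BST2 has 2 matches that overlap. The coordinates on GRCh38.p14 are chr2:37156931-37157230 on the minus strand for EIF2AK2, chr7:93117930-93118229 on the minus strand for SAMD9, chr1:27672143-27672442 on the minus strand for IFI6, chr1:78649539-78649838 on the plus strand for IFI44, chr1:78620198-78620497 on the plus strand for IFI44L, and chr19:17405581-17405880 on the minus strand for BST2.
EIF2AK2: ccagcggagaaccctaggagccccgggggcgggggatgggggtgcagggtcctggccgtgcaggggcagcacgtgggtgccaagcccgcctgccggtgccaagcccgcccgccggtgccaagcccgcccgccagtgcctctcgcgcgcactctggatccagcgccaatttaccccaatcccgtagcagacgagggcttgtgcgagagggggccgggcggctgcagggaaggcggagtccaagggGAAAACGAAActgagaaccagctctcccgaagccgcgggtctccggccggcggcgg
SAMD9: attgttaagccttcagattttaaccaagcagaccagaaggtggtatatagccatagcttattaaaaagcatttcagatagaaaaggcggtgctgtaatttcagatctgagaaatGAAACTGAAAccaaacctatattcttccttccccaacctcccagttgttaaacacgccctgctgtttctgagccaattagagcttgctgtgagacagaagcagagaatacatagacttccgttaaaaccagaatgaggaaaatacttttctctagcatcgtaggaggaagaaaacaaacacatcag
IFI6: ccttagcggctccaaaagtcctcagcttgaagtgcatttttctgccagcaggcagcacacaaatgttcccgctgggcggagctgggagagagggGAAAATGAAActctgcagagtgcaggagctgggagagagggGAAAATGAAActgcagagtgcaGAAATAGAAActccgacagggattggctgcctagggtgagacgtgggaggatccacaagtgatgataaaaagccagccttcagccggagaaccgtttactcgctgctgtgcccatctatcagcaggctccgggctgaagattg
IFI44: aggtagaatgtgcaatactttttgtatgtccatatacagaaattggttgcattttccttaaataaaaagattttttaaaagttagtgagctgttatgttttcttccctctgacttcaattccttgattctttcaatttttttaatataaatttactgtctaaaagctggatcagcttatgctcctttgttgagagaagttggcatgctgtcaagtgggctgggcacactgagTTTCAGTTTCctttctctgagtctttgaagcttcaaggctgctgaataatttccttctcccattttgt
IFI44L: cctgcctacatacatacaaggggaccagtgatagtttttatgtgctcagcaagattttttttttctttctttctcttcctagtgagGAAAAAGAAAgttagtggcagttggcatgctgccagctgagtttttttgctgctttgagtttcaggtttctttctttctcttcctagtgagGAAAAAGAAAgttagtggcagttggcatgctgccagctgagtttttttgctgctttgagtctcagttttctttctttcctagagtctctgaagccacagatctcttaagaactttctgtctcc
BST2: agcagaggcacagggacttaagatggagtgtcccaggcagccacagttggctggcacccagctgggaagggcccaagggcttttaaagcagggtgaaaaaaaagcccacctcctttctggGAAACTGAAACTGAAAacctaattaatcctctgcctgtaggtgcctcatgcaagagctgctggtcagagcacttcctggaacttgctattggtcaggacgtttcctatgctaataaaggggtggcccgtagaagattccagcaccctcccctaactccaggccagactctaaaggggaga

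Genes with the motif stood at widely different levels. Of the 17 genes with GAAANNGAAA, 6 reached 1 RPKM in all 4 libraries and 4 stayed under 0.2 RPKM in all 4. Of the 12 genes with a promoter that held no match, 6 reached 1 RPKM in all 4 libraries and 2 stayed under 0.2 RPKM in all 4. A match is a description of the letters, not a measured binding site.

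The baseline was uneven: some interferon-stimulated genes were well expressed in both lines, others were nearly silent in both. At 1 RPKM or more stood 17 of the 37 genes in T24T BCUC-1, 18 in T24T vector, 19 in UMUC3 BCUC-1 and 21 in UMUC3 vector. These were 45.9% of the 37 in T24T BCUC-1 (43.8% of all listed genes), 48.6% in T24T vector (44.5% of all), 51.4% in UMUC3 BCUC-1 (42.5% of all) and 56.8% in UMUC3 vector (42.0% of all). In all 4 libraries, 14 genes were at 1 RPKM or more, 14 were under 1 RPKM, and 10 were under 0.2 RPKM with fewer than 20 reads. Together the 37 genes took 586 and 612 of every 1000000 reads in T24T BCUC-1 and T24T vector, and 511 and 496 in UMUC3 BCUC-1 and UMUC3 vector.

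**Figure D1:**
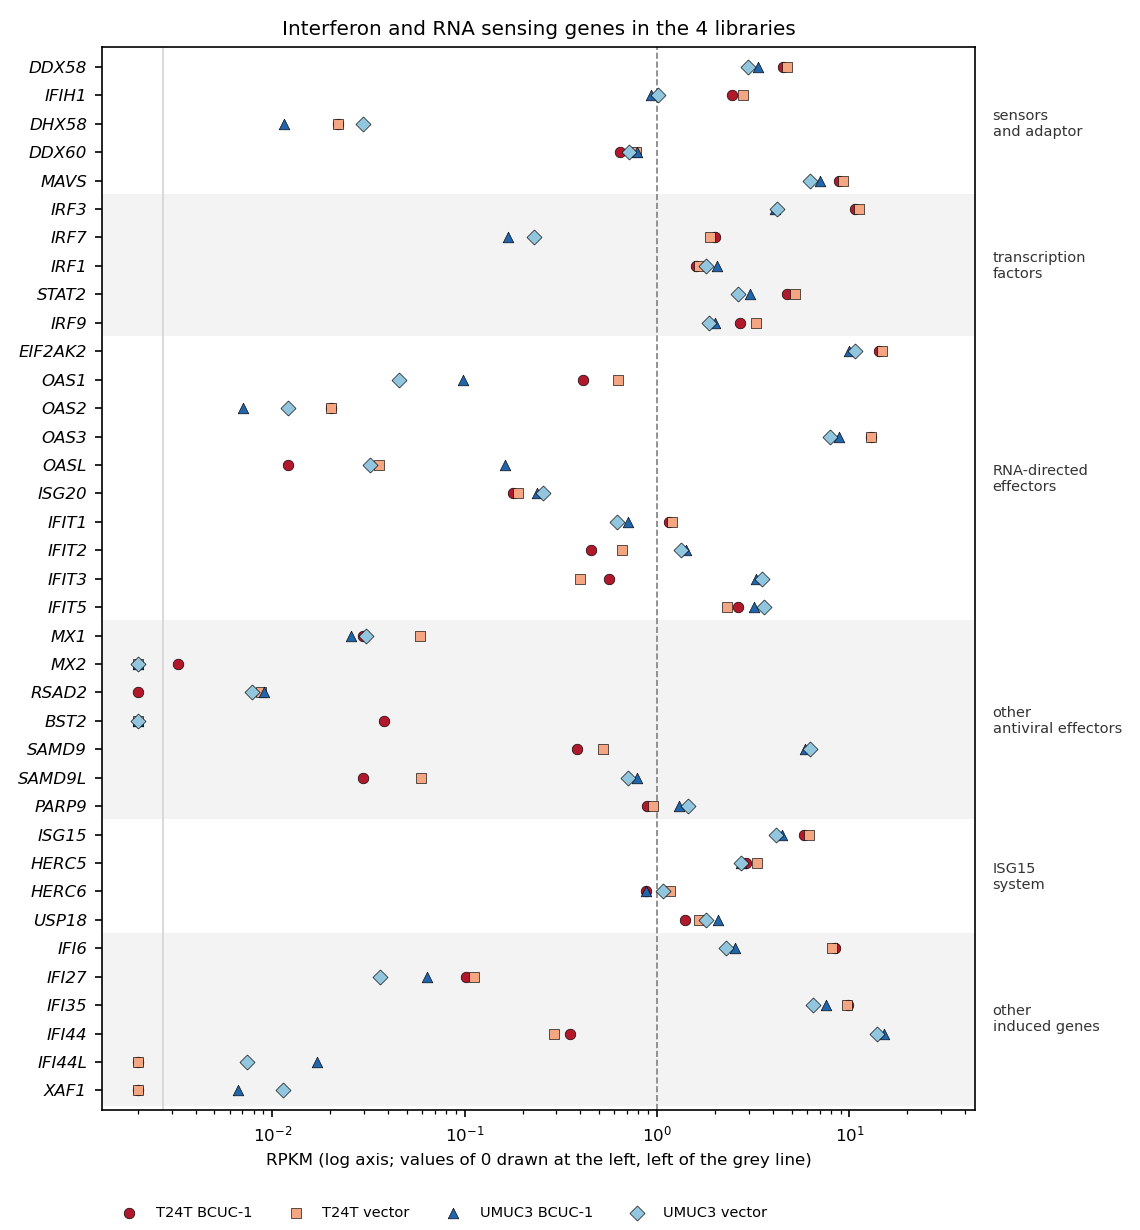
Level of each of the 37 genes in RPKM on a log axis, grouped by role from sensors at the top to other induced genes at the bottom, with 1 symbol per library and no error bars, since each group was 1 library. Values of 0 are drawn left of the grey line, and the dashed line marks 1 RPKM; the symbols of a line mostly lie together, while MX2, RSAD2, BST2, IFI44L and XAF1 have a 0 in at least 1 library.

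Among the sensors, DDX58 (RIG-I) stood at 4.53 and 4.75 RPKM in T24T BCUC-1 and T24T vector, and at 3.35 and 2.98 RPKM in UMUC3 BCUC-1 and UMUC3 vector. IFIH1 (MDA5) stood at 2.46 and 2.79 RPKM in T24T BCUC-1 and T24T vector, and at 0.933 and 1.02 RPKM in UMUC3 BCUC-1 and UMUC3 vector. MAVS, the adaptor of both, stood at 8.83 and 9.22 RPKM in T24T BCUC-1 and T24T vector, and at 7.02 and 6.26 RPKM in UMUC3 BCUC-1 and UMUC3 vector. All 3 were thus present in both lines, with both T24T libraries above both UMUC3 libraries. The share of all genes separated in this way was not counted, here or for the genes below. In the fit between the lines described further on, 70.4% of all tested genes passed. DHX58 (LGP2), the sensor relative that lacks signalling domains and modulates MDA5, was close to absent, with 2 and 2 reads in T24T BCUC-1 and T24T vector and 1 and 3 reads in UMUC3 BCUC-1 and UMUC3 vector. DDX60, a helicase reported to assist RIG-I, lay between 0.641 and 0.789 RPKM in the 4 libraries, and its lines overlapped.

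IRF3, which RNA sensing activates in cells that have seen no interferon, stood at 10.7 and 11.2 RPKM in T24T BCUC-1 and T24T vector, and at 4.12 and 4.20 RPKM in UMUC3 BCUC-1 and UMUC3 vector. IRF7, which interferon induces and which amplifies the response, had 124 and 117 reads in T24T BCUC-1 and T24T vector, and 10 and 16 reads in UMUC3 BCUC-1 and UMUC3 vector. Its level in T24T vector was 1.88 RPKM, against 0.230 RPKM in UMUC3 vector. Both factors were thus higher in both T24T libraries than in both UMUC3 libraries. STAT2 stood at 4.71 and 5.23 RPKM in T24T BCUC-1 and T24T vector, and at 3.05 and 2.63 RPKM in UMUC3 BCUC-1 and UMUC3 vector. IRF9, the DNA-binding partner of STAT2, lay between 1.87 and 3.28 RPKM, again with T24T above UMUC3. IRF1, a factor that both interferon classes induce, lay between 1.59 and 2.05 RPKM. Some of these reads cannot be assigned to 1 gene: 48.4% of the IRF9 exonic bases are shared with a listed gene on the same strand, and 19.3% of those of IRF3 with BCL2L12 on the opposite strand. The gene that overlaps IRF9 had 470 and 551 reads in T24T BCUC-1 and T24T vector and 386 and 403 in UMUC3 BCUC-1 and UMUC3 vector, more than IRF9 itself, and its part in the IRF9 values was not tested.

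Among effectors that act on RNA, EIF2AK2, the kinase PKR that halts translation on double-stranded RNA, stood at 14.2 and 14.7 RPKM in T24T BCUC-1 and T24T vector, and at 9.97 and 10.7 RPKM in UMUC3 BCUC-1 and UMUC3 vector. OAS3, which makes the 2-5A messenger on binding double-stranded RNA, stood at 13.0 and 12.9 RPKM in T24T BCUC-1 and T24T vector, and at 8.82 and 7.91 RPKM in UMUC3 BCUC-1 and UMUC3 vector. The other OAS genes were far lower. OAS1 stood at 0.411 and 0.623 RPKM in T24T BCUC-1 and T24T vector, and at 0.0978 and 0.0458 RPKM in UMUC3 BCUC-1 and UMUC3 vector. OAS2, which lies in the same cluster on chromosome 12, had at most 3 reads in any library, and OASL, an OAS relative that binds RIG-I, had between 1 and 13 reads. ISG20, an exonuclease, lay between 0.178 and 0.256 RPKM.

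The IFIT genes, some of whose products bind the 5′ ends of foreign RNA, lie side by side on chromosome 10 and did not share 1 pattern. IFIT1 stood at 1.16 and 1.19 RPKM in T24T BCUC-1 and T24T vector, and at 0.706 and 0.622 RPKM in UMUC3 BCUC-1 and UMUC3 vector. IFIT2 stood at 0.455 and 0.659 RPKM in T24T BCUC-1 and T24T vector, and at 1.42 and 1.33 RPKM in UMUC3 BCUC-1 and UMUC3 vector. IFIT3 stood at 0.562 and 0.400 RPKM in T24T BCUC-1 and T24T vector, and at 3.27 and 3.50 RPKM in UMUC3 BCUC-1 and UMUC3 vector. IFIT1 was thus higher in T24T, whereas IFIT2 and IFIT3 were higher in UMUC3, with no overlap between the lines for any of the 3. IFIT5 was closer, at 2.65 and 2.31 RPKM in T24T BCUC-1 and T24T vector and 3.20 and 3.59 RPKM in UMUC3 BCUC-1 and UMUC3 vector.

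Among the other antiviral effectors, several of the classical markers of interferon exposure were close to absent in both lines. MX1, a GTPase that blocks influenza virus, had 6 and 12 reads in T24T BCUC-1 and T24T vector and 5 and 7 reads in UMUC3 BCUC-1 and UMUC3 vector. MX2, its relative that acts on HIV, had 1 read in T24T BCUC-1 and 0 in the other 3 libraries. BST2 (tetherin), which holds budding virus at the cell surface, likewise had 1 read in T24T BCUC-1 and 0 elsewhere. RSAD2 (viperin), which makes a chain-terminating nucleotide, had 0 reads in T24T BCUC-1 and 1 read in each of the other libraries. With 3 reads as the count that a 0 allows, BST2 could have stood at up to 0.113 RPKM in T24T vector, 0.118 in UMUC3 BCUC-1 and 0.101 in UMUC3 vector. In these bulk libraries a low level does not tell few expressing cells from little RNA in each cell.

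SAMD9 and SAMD9L, adjacent genes on chromosome 7 that restrict poxviruses and cell growth, were expressed mainly in UMUC3. SAMD9 stood at 0.383 and 0.524 RPKM in T24T BCUC-1 and T24T vector, and at 5.84 and 6.23 RPKM in UMUC3 BCUC-1 and UMUC3 vector. SAMD9L had 5 and 10 reads in T24T BCUC-1 and T24T vector, and 127 and 134 reads in UMUC3 BCUC-1 and UMUC3 vector. In both genes each UMUC3 library exceeded each T24T library. PARP9, an ADP-ribosyltransferase partner of DTX3L, lay between 0.882 and 1.45 RPKM, with UMUC3 above T24T.

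Of the genes that attach or remove ISG15, and ISG15 itself, ISG15, HERC5 and USP18 were expressed in both lines, but UBA7 was not well expressed in either. UBA7, which ISG15 conjugation requires, had 4 and 2 reads in T24T BCUC-1 and T24T vector. It had 18 and 12 reads in UMUC3 BCUC-1 and UMUC3 vector. ISG15, the ubiquitin-like modifier, stood at 5.81 and 6.19 RPKM in T24T BCUC-1 and T24T vector, and at 4.44 and 4.17 RPKM in UMUC3 BCUC-1 and UMUC3 vector. HERC5, its main ligase in human cells, stood between 2.72 and 3.30 RPKM, and USP18, which removes ISG15 and dampens the interferon receptor, between 1.39 and 2.07 RPKM. HERC6, next to HERC5 on chromosome 4, stood at 0.871 and 1.17 RPKM in T24T BCUC-1 and T24T vector, and at 0.881 and 1.07 RPKM in UMUC3 BCUC-1 and UMUC3 vector. For HERC6 the vector library was the higher one in each line, and the lines overlapped.

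The remaining induced genes split widely. IFI6, a small mitochondrial and endoplasmic reticulum protein, stood at 8.38 and 8.10 RPKM in T24T BCUC-1 and T24T vector, and at 2.54 and 2.27 RPKM in UMUC3 BCUC-1 and UMUC3 vector. IFI35 stood at 9.78 and 9.74 RPKM in T24T BCUC-1 and T24T vector, and at 7.58 and 6.47 RPKM in UMUC3 BCUC-1 and UMUC3 vector. IFI44 stood at 0.354 and 0.290 RPKM in T24T BCUC-1 and T24T vector, and at 15.2 and 13.9 RPKM in UMUC3 BCUC-1 and UMUC3 vector, where it was the most abundant of the 37. Its neighbour IFI44L, with 2 motif matches in its promoter, had 0 reads in both T24T libraries and 4 and 2 reads in UMUC3 BCUC-1 and UMUC3 vector. IFI27 had between 4 and 11 reads, and XAF1, a pro-apoptotic gene, had 0 reads in both T24T libraries and 1 and 2 in UMUC3 BCUC-1 and UMUC3 vector.

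T24T was compared with UMUC3 to describe the baseline of each line, with limma on log2(RPKM + 1) over the 15415 genes that reached 1 RPKM in at least 2 libraries. In that fit 23 of the 37 genes were tested, 13 were higher in T24T and 6 were lower at a Benjamini-Hochberg adjusted p under 0.05. The lines differ in most genes: 70.4% of all tested genes passed, 40.8% higher and 29.6% lower in T24T, so 19 of 23 (82.6%) is to be read against that background. Of the 23, 7 reached 1 RPKM only in the line in which they were higher: IFIT1 and IRF7 in T24T, and IFI44, IFIT2, IFIT3, PARP9 and SAMD9 in UMUC3. These 7 had to differ to enter the fit and are described without a p. Among the 16 that reached 1 RPKM in both lines 12 passed (75.0%), 11 higher and 1 lower in T24T, beside 65.5% of the 13050 such genes, 37.5% higher and 28.0% lower. The median log2 difference was 0.43 over the 16 genes and 0.076 over the 13050. The BCUC-1 and vector libraries of a line served as its repeats, which leaves 1 residual degree of freedom, so the p-values measure the spread between these libraries alone.

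DDX58, IFIH1, MAVS, IRF3, STAT2 and IRF9 were higher in T24T, with both T24T libraries above both UMUC3 libraries. The sensors DHX58 and DDX60 were too low to be tested. On log2(RPKM + 1), IRF3 differed by 1.21 (SE 0.086, limma adjusted p = 3.7e-05) and IFIH1 by 0.88 (SE 0.098, adjusted p = 0.00027). DDX58 at 0.44, MAVS at 0.39, STAT2 at 0.64 and IRF9 at 0.44 also passed, with limma adjusted p-values between 0.0020 and 0.011. The effectors OAS3 (0.58) and EIF2AK2 (0.45) passed too. IFI6 had the largest difference of those higher in T24T, at 1.44 (SE 0.094, limma adjusted p = 2.5e-05). ISG15 at 0.40 and IFI35 at 0.43 completed the 11. IRF7 and IFIT1, which entered through T24T alone, differed by 1.29 and 0.39. The 4 genes that did not pass were USP18 (-0.22), IRF1 (-0.16), HERC5 (0.13) and HERC6 (0.030).

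IFIT5 was the 1 gene lower in T24T among those that reached 1 RPKM in both lines, at -0.34 (SE 0.11, limma adjusted p = 0.031). The other 5 genes lower in T24T entered through UMUC3 alone. IFI44 differed by -3.55, SAMD9 by -2.28, IFIT3 by -1.57, IFIT2 by -0.61 and PARP9 by -0.31, and for each both T24T libraries lay below both UMUC3 libraries.

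The vector libraries were also compared alone. Between the vector libraries, 27 of the 37 genes had at least 20 reads in the pair and at least 1 read per 1000000 assigned (RPM) in 1 of them. Of these 5 were at least 2-fold higher in T24T vector (background 20.4% of 16970 genes) and 5 at least 2-fold lower (background 11.8%). The 5 higher were OAS1 with a ratio of 13.6 (exact 95% interval 5.96 to 38.3), IRF7 with 8.18 (4.83 to 14.8), IFI6 with 3.57 (2.60 to 4.98), IFIH1 with 2.74 (2.21 to 3.41) and IRF3 with 2.66 (2.37 to 2.98). The 5 lower were IFI44 with 0.0209 (0.0114 to 0.0353), SAMD9L with 0.0835 (0.0391 to 0.158), SAMD9 with 0.0841 (0.0667 to 0.105), IFIT3 with 0.114 (0.0725 to 0.173) and IFIT2 with 0.494 (0.362 to 0.667). In the BCUC-1 libraries these 10 genes again differed at least 2-fold in these directions, with background shares for both pairs of 15.9% higher and 10.7% lower of 16600 genes. OAS1, IRF7, IFI44 and SAMD9L met the RPM floor in the higher line alone. STAT2 lay just under the 2-fold limit, at 1.99 (1.77 to 2.25). The median of all genes was itself 0.18 higher in T24T vector on the log2 scale, and with the vector libraries scaled to equal medians the 2-fold counts were 5 higher and 5 lower again.

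**Figure D2:**
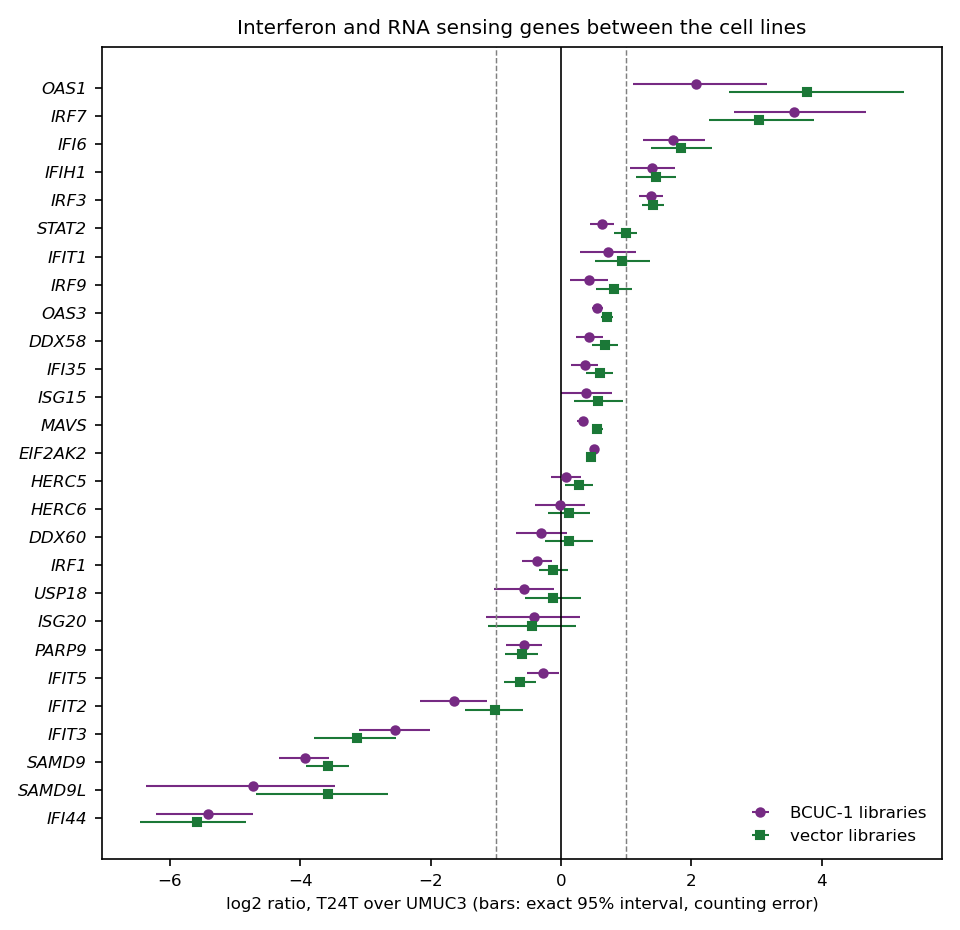
Ratio of T24T to UMUC3 for each of the 27 genes with enough reads, on a log2 axis, with exact 95% intervals for counting error; purple circles are the BCUC-1 libraries and green squares the vector libraries. OAS1, IRF7, IFI6, IFIH1 and IRF3 lie beyond 2-fold on the T24T side in both pairs, and IFI44, SAMD9L, SAMD9, IFIT3 and IFIT2 on the UMUC3 side.

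Leukocytes carry high levels of many of these genes, and their markers differed between the lines as well. Summed over 7 leukocyte markers, the level was 7.29 and 7.77 RPKM in T24T BCUC-1 and T24T vector, against 125 and 119 RPKM in UMUC3 BCUC-1 and UMUC3 vector. Nearly all of it was CD68, a lysosomal protein that macrophages carry in large amounts, at 6.78 and 7.45 RPKM in T24T BCUC-1 and T24T vector and 124 and 119 RPKM in UMUC3 BCUC-1 and UMUC3 vector. NKG7, which marks cytotoxic lymphocytes, had 1 read in T24T BCUC-1 and 0 in the other libraries. The part of CD68 in the line differences was not tested. The summed plasmacytoid dendritic cell markers stayed between 0.422 and 1.05 RPKM.

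Whether the libraries with BCUC-1 showed an RNA sensing response was asked over both lines and within each. Over both lines no gene of the 37 was called, and 14 of them were too low to be tested. In the limma fit with line and treatment as terms, 0 of the 23 tested genes passed at a Benjamini-Hochberg adjusted p under 0.05, and 0 of all 15415 genes did (background 0%). At an unadjusted p under 0.05, limma gave 0 of the 23 genes and 652 of the 15415, and limma-voom on the recovered reads passed 0 of the 23 and 13 of all genes. The lowest p of the 23 was that of HERC6, at 0.11 unadjusted and 0.998 adjusted in limma, with a log2 difference of -0.17 (SE 0.095) and the BCUC-1 library lower in 2 of 2 lines. The median log2 difference was -0.0025 over the 23 genes, beside 0.0035 over all tested genes.

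The sensors and the genes that respond most strongly to interferon give this result its detail. BCUC-1 to vector ratios of DDX58 were 0.953 (exact 95% interval 0.837 to 1.08) in T24T and 1.12 (0.962 to 1.31) in UMUC3. With the GC trend over all genes removed, the DDX58 ratio in UMUC3 was 1.19 (1.02 to 1.39), an interval above 1. Those of IFIH1 were 0.883 (0.745 to 1.05) in T24T and 0.917 (0.695 to 1.21) in UMUC3. ISG15 gave 0.938 (0.732 to 1.20) in T24T and 1.06 (0.798 to 1.42) in UMUC3, so the counting intervals of all 3 left no room for a 2-fold increase in either line. IFIT1 gave 0.973 (0.755 to 1.25) in T24T and 1.14 (0.813 to 1.58) in UMUC3. IFI6 gave 1.03 (0.830 to 1.29) in T24T and 1.12 (0.745 to 1.69) in UMUC3, and IRF7 gave 1.06 (0.820 to 1.38) in T24T and 0.729 (0.296 to 1.71) in UMUC3. For MX1 the ratios were 0.502 (0.155 to 1.44) in T24T and 0.833 (0.208 to 3.05) in UMUC3, so with so few reads a 2-fold increase in UMUC3 was not detectable. RSAD2, MX2, BST2, IFI44L and XAF1 had too few reads for a ratio to be read, but stayed at no more than 4 reads in the BCUC-1 libraries.

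Within T24T, no gene of the 25 with enough reads differed 2-fold between the BCUC-1 and vector libraries (background 0.441% of 16084 genes). The ratios were below 1 for 19 of the 25 (76.0%), beside 57.8% of all genes at or below 1, and the median log2 ratio was -0.085 over the 25 and -0.023 over all genes. The counting interval lay below 1 for 3 of them (12.0%, background 10.1%) and above 1 for 0 (background 5.19%). These 3 were OAS1 with 48 reads in T24T BCUC-1 and 73 in T24T vector, a ratio of 0.660 (0.449 to 0.963), HERC6 with 119 reads in T24T BCUC-1 and 160 in T24T vector, a ratio of 0.747 (0.584 to 0.952), and IRF9 with 242 reads in T24T BCUC-1 and 295 in T24T vector, a ratio of 0.823 (0.692 to 0.979). Other ratios far from 1 were those of IFIT2 at 0.690 (0.459 to 1.03), SAMD9 at 0.732 (0.519 to 1.03) and IFIT3 at 1.41 (0.817 to 2.45), whose intervals include 1. IFI44, under the RPM floor in T24T, gave 1.22 (0.565 to 2.67). IFIT2 and IFIT3, neighbours on chromosome 10, thus stood on opposite sides of 1.

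Within UMUC3, again no gene of 25 differed 2-fold (background 0.669% of 15686 genes), and the balance lay the other way. Ratios above 1 were found for 16 of the 25 (64.0%), beside 57.6% of all genes, with a median log2 ratio of 0.10 over the 25 and 0.038 over all. The interval lay above 1 for 4 (16.0%, background 20%) and below 1 for 1 (4.0%, background 14%). The 4 above were IFI35 with 340 reads in UMUC3 BCUC-1 and 338 in UMUC3 vector, a ratio of 1.17 (1.01 to 1.37) at unequal depths, STAT2 with 1.16 (1.01 to 1.33), MAVS with 1.12 (1.05 to 1.19) and OAS3 with 1.11 (1.04 to 1.19). The 1 below was EIF2AK2, at 0.929 (0.881 to 0.980). With the UMUC3 libraries scaled to equal medians the interval lay above 1 for 2 genes, MAVS and OAS3, and below 1 for 2, EIF2AK2 and SAMD9. Farther from 1 than most of the rest were HERC6 at 0.825 (0.644 to 1.05), USP18 at 1.15 (0.867 to 1.54) and IRF1 at 1.14 (0.987 to 1.33), and their intervals include 1. OASL was under the read floor: it had 13 reads in UMUC3 BCUC-1 and 3 in UMUC3 vector, a ratio of 5.05 (1.39 to 27.6), and 1 read in T24T BCUC-1 and 3 in T24T vector, a ratio of 0.335 (0.00637 to 4.17).

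**Figure D3:**
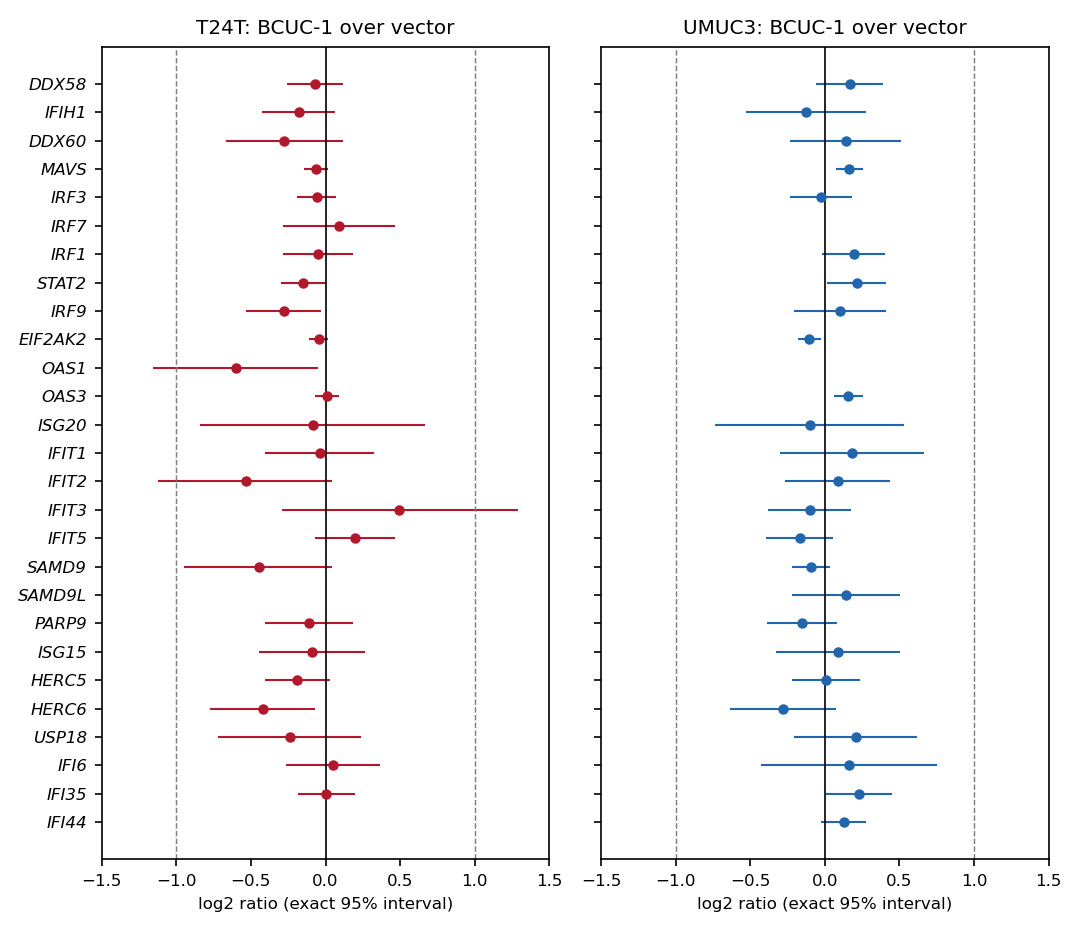
Ratio of BCUC-1 to vector in T24T and in UMUC3 for each gene with enough reads, on a log2 axis, with exact 95% intervals for counting error and 1 library per group. In both lines the points stay within 2-fold, between 0.660 for OAS1 and 1.41 for IFIT3 in T24T and between 0.825 for HERC6 and 1.17 for IFI35 in UMUC3.

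The direction often differed between the lines, for these genes and for all genes alike. Of 23 genes with enough reads in both lines, 3 had a BCUC-1 to vector ratio above 1 in both, 7 below 1 in both, 11 below 1 in T24T and above 1 in UMUC3, and 2 the reverse. Over the 14499 genes that met the same floor in both lines, these shares were 24.8%, 24.1%, 32.9% and 18.3%. HERC6 was among the 7 below 1 in both lines. A term for a different effect in each line leaves no residual degree of freedom, so the difference between the lines was not tested.

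In UMUC3 the ratio of BCUC-1 to vector moved with GC content over all genes, and the values of the 37 genes are set beside it. From the lowest to the highest of 10 groups of genes by GC content, the median log2 ratio ran between -0.16 and 0.21 in UMUC3, and between -0.040 and -0.0096 in T24T. The 4 UMUC3 genes with an interval above 1 have GC contents of 50.2% (STAT2), 52.1% (MAVS), 54.3% (OAS3) and 58.8% (IFI35), and EIF2AK2 one of 38.7%. With the GC trend removed, their log2 ratios were 0.15 for STAT2, 0.076 for MAVS, 0.039 for OAS3, 0.085 for IFI35 and -0.0055 for EIF2AK2. The interval of each of these 5 genes then included 1. Among the 25 genes it lay above 1 for 2 others, DDX58 at 1.19 (1.02 to 1.39) and IFI44 at 1.17 (1.05 to 1.30), and below 1 for 0, beside 10.8% above and 12.9% below over the 12971 genes with a GC content. The median log2 ratio of the 25 was 0.039.

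**Figure D4:**
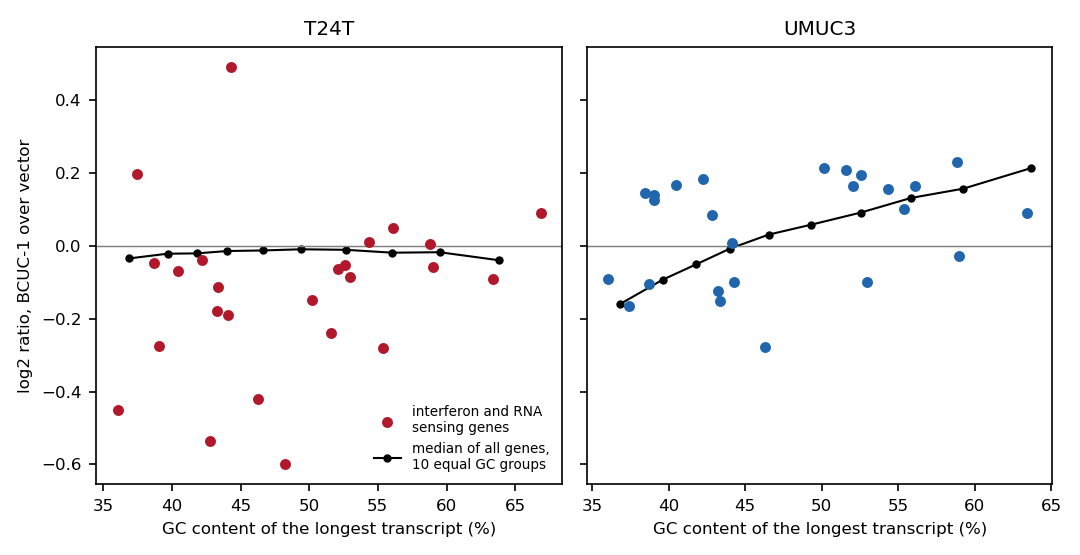
Median log2 ratio of BCUC-1 to vector in 10 groups of genes ordered by GC content (lines), with those of the 37 genes that had enough reads as points, for T24T and UMUC3. The line is nearly flat in T24T and runs from -0.16 in the lowest to 0.21 in the highest GC group in UMUC3, and the points of UMUC3 scatter around it.

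Other genes of the pathway were followed in lists drawn up by role. Of 81 tested genes in these lists, 0 passed for BCUC-1 over both lines in limma, and 0 did at an unadjusted p under 0.05. For T24T against UMUC3, limma called 33 of the 81 higher (40.7%) and 29 lower (35.8%), together 76.5%, beside 70.4% of all tested genes, 40.8% higher and 29.6% lower. The counts of the single lists that follow are to be read against the same background. Among the genes called, IFNLR1, SOCS1, RNF125, SP110 and HELZ2 reached 1 RPKM in T24T alone. MYD88, TNFAIP3, GBP1, GBP2, IFITM2, SLFN5 and PARP10 did so in UMUC3 alone, as did NLRP1, TMEM173 and IFI16. All of these had to differ to enter the fit, so their calls, which the counts include, were fixed by the floor. The 70.4% of all tested genes holds such genes as well. Of the 8 interferon ligands listed by role, only 2 were in the table, and these were close to silent. IFNE had 0 and 3 reads in T24T BCUC-1 and T24T vector and 2 and 8 in UMUC3 BCUC-1 and UMUC3 vector, and IFNK had at most 2 reads in any library. Every gene in the table had a read in some library, and why the other ligands are missing is not known from it. CCL5, a chemokine that interferon and NF-kB induce, was the only 1 of 4 listed interferon-induced chemokines in the table. It had 3 and 2 reads in T24T BCUC-1 and T24T vector and 13 and 20 in UMUC3 BCUC-1 and UMUC3 vector.

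Interferon receptor and JAK-STAT genes were expressed in both lines, with 1 exception. Of 11 tested genes 7 were higher and 1 lower in T24T. IFNGR2, a chain of the interferon gamma receptor, stood at 11.0 and 10.7 RPKM in T24T BCUC-1 and T24T vector and 4.43 and 3.84 RPKM in UMUC3 BCUC-1 and UMUC3 vector. STAT3 stood at 20.4 and 19.7 RPKM in T24T BCUC-1 and T24T vector and 8.66 and 7.97 RPKM in UMUC3 BCUC-1 and UMUC3 vector. IFNAR2, a chain of the type I receptor, had BCUC-1 to vector ratios of 0.863 in T24T and 0.930 in UMUC3, and IL10RB, shared by the type III receptor, 0.845 in T24T and 0.929 in UMUC3, with no call in limma. IFNLR1, the specific chain of the type III receptor, named after its values were seen, had 238 and 245 reads in T24T BCUC-1 and T24T vector and 0 and 1 reads in UMUC3 BCUC-1 and UMUC3 vector.

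Of 6 tested sensors of other nucleic acids or damage, 2 were higher and 3 lower in T24T. The 3 lower were NLRP1, TMEM173 and IFI16, which reached 1 RPKM in UMUC3 alone and so had to differ to enter the fit. NLRP1, an inflammasome sensor, stood at 0.199 and 0.211 RPKM in T24T BCUC-1 and T24T vector and 1.97 and 2.25 RPKM in UMUC3 BCUC-1 and UMUC3 vector. DDX41, a helicase reported to sense DNA, stood at 16.4 and 16.7 RPKM in T24T BCUC-1 and T24T vector and 13.7 and 12.1 RPKM in UMUC3 BCUC-1 and UMUC3 vector. The cytoplasmic DNA sensor cGAS (MB21D1) stood at 13.6 and 13.1 RPKM in T24T BCUC-1 and T24T vector and 8.93 and 10.9 RPKM in UMUC3 BCUC-1 and UMUC3 vector. Its adaptor STING (TMEM173), named after its values were seen, had 6 and 5 reads in T24T BCUC-1 and T24T vector against 183 and 150 in UMUC3 BCUC-1 and UMUC3 vector. IFI16, likewise named afterwards, had 8 and 9 reads in T24T BCUC-1 and T24T vector against 568 and 595 in UMUC3 BCUC-1 and UMUC3 vector. T24T thus had cGAS with almost no STING or IFI16 transcript.

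Of 12 tested adaptors and kinases 4 were higher and 5 lower in T24T. MYD88, the Toll-like receptor adaptor, had 7 and 13 reads in T24T BCUC-1 and T24T vector against 158 and 189 in UMUC3 BCUC-1 and UMUC3 vector. TRAF3, which relays MAVS signals, stood at 7.64 and 7.35 RPKM in T24T BCUC-1 and T24T vector and 17.1 and 16.4 RPKM in UMUC3 BCUC-1 and UMUC3 vector. RNF135, a ligase that activates RIG-I, had BCUC-1 to vector ratios of 1.06 in T24T and 1.16 in UMUC3 without a call. Of 9 tested genes for proteins that bind or edit double-stranded RNA, 6 were higher and 1 lower in T24T. ADAR, the editing enzyme that keeps endogenous RNA from MDA5, stood at 33.9 and 33.4 RPKM in T24T BCUC-1 and T24T vector and 20.5 and 18.6 RPKM in UMUC3 BCUC-1 and UMUC3 vector. ADARB1, a second editing enzyme, had BCUC-1 to vector ratios of 1.16 (1.01 to 1.34) in T24T and 1.06 (0.913 to 1.22) in UMUC3, with no call. In T24T, 9 of these 9 ratios were above 1 (42.2% of all genes), 3 with the interval above 1 (background 5.19%). In UMUC3, 8 were above 1 (57.6% of all genes) and 1 below, 4 with the interval above 1 (background 20%). The median log2 ratios were small, at 0.033 in T24T and 0.055 in UMUC3, and 0 of the 9 passed in limma. With the GC trend removed, intervals above 1 were 4 in T24T and 2 in UMUC3. The cause was not tested.

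Of 12 tested brakes on interferon signalling, 6 were higher and 5 lower in T24T. SOCS1, which blocks JAK kinases, stood at 4.01 and 4.41 RPKM in T24T BCUC-1 and T24T vector and 0.503 and 0.678 RPKM in UMUC3 BCUC-1 and UMUC3 vector, and RNF125, a ligase that marks RIG-I for degradation, at 1.34 and 1.40 RPKM in T24T BCUC-1 and T24T vector and 0.108 and 0.162 RPKM in UMUC3 BCUC-1 and UMUC3 vector. Of 31 tested further interferon-stimulated genes, 8 were higher and 14 lower in T24T, together 71.0% beside the 70.4% of all tested genes. IFITM2, which blocks virus entry, stood at 0.357 and 0.328 RPKM in T24T BCUC-1 and T24T vector and 7.16 and 7.46 RPKM in UMUC3 BCUC-1 and UMUC3 vector, although reads of the near-identical IFITM genes may be split between them. LGALS3BP stood at 0.887 and 1.05 RPKM in T24T BCUC-1 and T24T vector and 16.0 and 14.1 RPKM in UMUC3 BCUC-1 and UMUC3 vector. TRIM34 had BCUC-1 to vector ratios of 0.548 (0.247 to 1.16) in T24T and 0.984 (0.567 to 1.69) in UMUC3, and APOBEC3G, a cytidine deaminase, 1.34 (0.518 to 3.60) in T24T and 1.15 (0.888 to 1.48) in UMUC3.

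**Figure D5:**
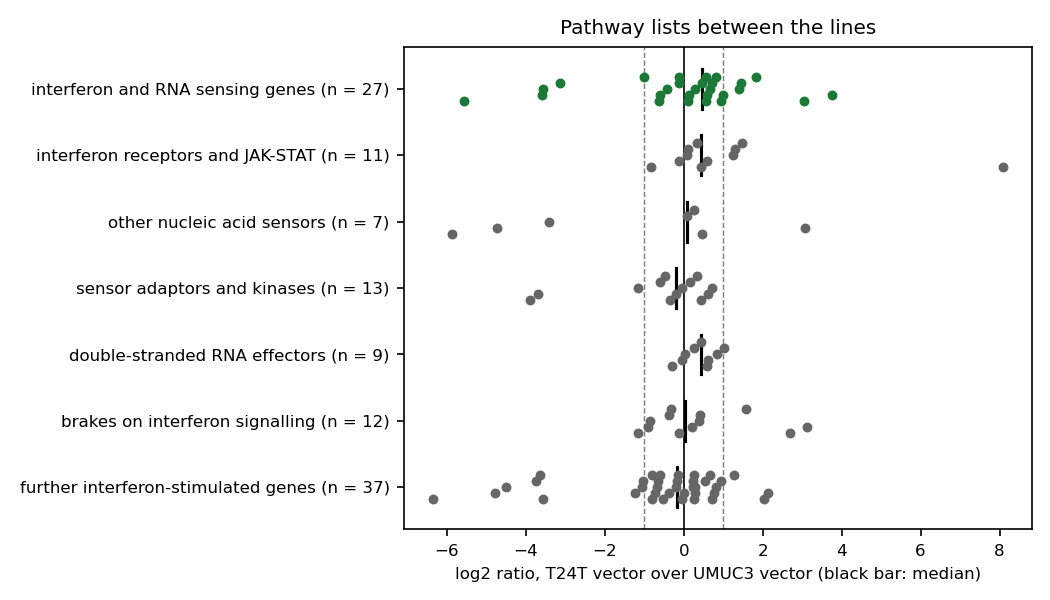
Log2 ratio of T24T vector to UMUC3 vector for the genes of each list that had enough reads, 1 point per gene, with the median of each list as a black bar and the 2-fold limits dashed. The 27 interferon and RNA sensing genes (green) have their median at 0.45, and points of most lists lie on both sides of 0.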

How the data were processed

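RNA was measured in 4 libraries, 1 per group, whose titles name the table's columns. The authors deposited RPKM values, scaled to gene length and to the total of assigned reads, with a Length column (in bases) per the file headers. The submitters' processing notes name Bowtie 0.12.2. For build, annotation, strand setting and reads matching several places, the answer is not given in the sources used here. Starts or ends matched GENCODE 29 for 96.5% of 22720 genes, so coordinates are on GRCh38.

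RPKM times length was a whole multiple of 1 step for 100% of genes (tolerance 0.001 reads), which gave the reads behind each value exactly. The 37 genes, the lists and the rules were chosen with earlier results of these data known. Where genes are named within a list, they are those with the largest line difference or mean BCUC-1 change (up to 4 per list); all 37 are accounted for.

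Both terms, BCUC-1 against vector and T24T against UMUC3, came from 1 limma 3.58.1 fit with an intensity trend (R 4.3.3) on log2(RPKM + 1), two-sided, with Benjamini-Hochberg adjustment over all 15415 genes at 1 RPKM or more in 2 libraries. A difference on that scale understates the change of low genes. The fit was also run on simulated reads with set changes. For BCUC-1 these reads held no difference between the lines, unlike the real libraries, and the outcome is not reported here. Within pairs of libraries no test across genes was made: a ratio is that of RPKM, its exact (Clopper-Pearson) 95% interval comes from the reads and covers counting error only, and it compares 2 libraries, not conditions. Counts of 2-fold differences use genes whose reads in the pair number 20 or more and that reach 1 RPM in a library. A count of 0 allows up to 3 reads. GC content is that of the longest GENCODE 29 transcript. Other settings are limma-voom, another pseudocount, other floors, quantile, median and TMM scaling, removal of the GC trend, and a fit with 1 term. With 1 library per group, no p-value here measures variation between cultures. In the gene names, 27 had been turned into dates and 2 were repeated. Some genes of the lists are counted in them but not reported here by name.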

Additional observations from a re-analysis of the deposited data

How the results depend on the processing

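For BCUC-1 over both lines, 0 of the interferon and RNA sensing genes passed in any of the fits run, whereas the count over all genes, 0 as reported, was 13 with limma-voom, 1 with a pseudocount of 0.1, 60 with a floor of 5 RPKM, 19 with libraries scaled to equal medians and 39 over genes with a GC content only, a setting added after seeing the data. For T24T against UMUC3 a floor of 5 RPKM left 6780 genes passing (10847 as reported), and 9 of the interferon and RNA sensing genes (19 as reported), 7 higher and 2 lower (13 and 6 as reported), with fewer of them tested. Without a filter 12 passed, 8 of them higher, over 32973 tested genes. HERC6 differed between the lines by 0.030 as reported and by -0.17 with quantile normalization, -0.037 with equal medians and -0.032 with the GC trend removed; the cause was not tested. Within T24T, dropping the read floor gave 2 genes 2-fold higher and 2 lower (0 and 0 as reported), and within UMUC3 3 higher and 1 lower (0 and 0 as reported), all at low reads. In UMUC3 the genes with an interval above 1, 4 as reported, were 2 with equal medians and 2 with TMM scaling, MAVS and OAS3 in both. With the GC trend removed they were 2 others, DDX58 and IFI44. Those below 1, 1 as reported, were 2, 2 and 0, with SAMD9 beside EIF2AK2 under both scalings. Between the vector libraries, log2(RPKM + 1) gave 3 genes 2-fold higher and 3 lower, against 5 and 5, since the added 1 shrinks low values. Of single-gene values, 599 kept their direction and side of the threshold, 27 moved, 5 passed that had not, 9 no longer passed and 3 reversed. No replicate could be left out with 1 library per group. The labels carry no replicate numbers, so the only pairing of BCUC-1 with vector libraries that they give is by cell line. The cell line, which a BCUC-1 and a vector library share, is a term of the fit as reported, and without it 0 genes passed for BCUC-1. Depth limits the genes under 20 reads, where most 2-fold differences cannot be told from counting error.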

Other observations

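Several further genes of the pathway, named after their values were seen, were nearly silent or low in T24T and higher in UMUC3. GBP2, an interferon-induced GTPase, had 3 and 2 reads in T24T BCUC-1 and T24T vector and 206 and 184 in UMUC3 BCUC-1 and UMUC3 vector. GBP1 had 5 and 6 reads in T24T BCUC-1 and T24T vector and 151 and 185 in UMUC3 BCUC-1 and UMUC3 vector. IKBKE, an inducible kinase that phosphorylates IRF3 and IRF7, had 1 and 4 reads in T24T BCUC-1 and T24T vector and 78 and 67 in UMUC3 BCUC-1 and UMUC3 vector. SLFN5 stood at 0.562 and 0.580 RPKM in T24T BCUC-1 and T24T vector and 6.46 and 6.86 RPKM in UMUC3 BCUC-1 and UMUC3 vector. TLR3, the endosomal sensor of double-stranded RNA, ran the other way, with 36 and 30 reads in T24T BCUC-1 and T24T vector and 0 and 4 in UMUC3 BCUC-1 and UMUC3 vector.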
